A study of Rattus norvegicus with 18 samples.

Results

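Reactive astrocyte genes are a set of 10 genes that astrocytes switch on or raise after injury, inflammation or lack of blood flow: Lcn2, Timp1, Cp, Serpina3n, S1pr3, Cd44, Steap4, Cd109, Gfap and Vim. They were taken by symbol, case ignored, from the deposited table of raw counts of rat brain. Of the 10 symbols, 9 had a row among the 34873 genes listed, each a single row. No row carried the symbol Serpina3n. All 9 rows had enough counts to be tested, together with 16581 genes in all. Brain was compared between 3 groups of 6 libraries. NC was wild-type with no treatment given. CO was wild-type too, after inhaling carbon monoxide. CLCF1 had inhaled it as well, and its genotype label is a Clcf1 knock-down, Clcf1 being a cytokine gene of the interleukin-6 family. The exposure in the design text was 40 min at 1000 ppm followed by 20 min at 3000 ppm. The same text describes removing macrophages with liposomes and giving rats cultured bone marrow macrophages in which Clcf1 had been changed by lentivirus. It does not say which groups received either, so in each comparison these steps and the named condition cannot be told apart. Strain, sex, age, the part of the brain and the time after exposure are not in the labels.

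Astrocytes support neurons, take up glutamate and line blood vessels with their endfeet. When they become reactive, they enlarge their scaffold of intermediate filaments, made largely of the proteins of Gfap and Vim, and release proteins that act on matrix, iron and inflammation. Cytokines that signal through the gp130 receptor chain and the transcription factor STAT3, to which the product of Clcf1 belongs, and interleukin-1 and TNF acting through NF-κB are classic inducers of this state. Published lists from mouse divide the genes into those raised by many insults (pan-reactive), those raised by bacterial endotoxin (A1) and those raised by loss of blood flow (A2). Cd109 comes from the A2 list and the other 9 genes are pan-reactive.

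Libraries 3 to 6 of every group stood apart from libraries 1 and 2. Summed over the 3 groups, 42660 cases of a gene lacked counts in libraries 1 and 2 alike, and in 0 of these cases was a count found in libraries 3 to 6. In the reverse direction, 1833 of 44493 genes without a count in libraries 3 and 4 (4.12%) had one in library 1 or 2. Where this comes from was not tested. P-values below treat the 6 libraries of a group as independent samples, which libraries 3 to 6 may not be, and nothing in the labels says that the libraries came from separate animals. Values from libraries 1 and 2 alone therefore stand beside those from all libraries. Total counts ran from 15.1 to 20.3 M per library. The targeted gene Clcf1 had 1 to 7 counts in the NC libraries, 80 to 118 in the CO libraries and 0 to 3 in the CLCF1 libraries. CLCF1 thus lacked the high counts of CO. It overlapped NC, also wild-type, and was not called lower than NC (edgeR adjusted p = 0.126). A level below that of untreated wild-type was therefore not shown. Astrocyte identity was plain in every library, with a summed 8841 to 13120 CPM (counts scaled to a common library size) over 14 marker genes, none of them without counts in any group.

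The promoters of Lcn2, S1pr3 and Vim are shown because these genes have the 3 smallest p-values among the members. Each sequence runs 5′ to 3′ along the gene's strand and covers the 250 bases before the start of the gene in RefSeq's GRCr8 build, at chr3:36081781-36082030 on the minus strand for Lcn2, chr17:13946014-13946263 on the minus strand for S1pr3 and chr17:81577011-81577260 on the plus strand for Vim. Capitals mark a match to a searched motif.
Lcn2: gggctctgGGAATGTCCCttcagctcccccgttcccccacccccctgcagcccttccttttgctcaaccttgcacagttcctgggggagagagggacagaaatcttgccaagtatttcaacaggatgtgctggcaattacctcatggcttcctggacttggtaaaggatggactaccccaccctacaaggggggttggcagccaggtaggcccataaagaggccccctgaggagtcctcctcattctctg
S1pr3: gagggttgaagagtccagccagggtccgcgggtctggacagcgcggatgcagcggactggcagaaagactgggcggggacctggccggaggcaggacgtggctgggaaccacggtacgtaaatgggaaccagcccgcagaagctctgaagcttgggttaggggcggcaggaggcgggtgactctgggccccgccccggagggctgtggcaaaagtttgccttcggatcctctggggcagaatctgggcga
Vim: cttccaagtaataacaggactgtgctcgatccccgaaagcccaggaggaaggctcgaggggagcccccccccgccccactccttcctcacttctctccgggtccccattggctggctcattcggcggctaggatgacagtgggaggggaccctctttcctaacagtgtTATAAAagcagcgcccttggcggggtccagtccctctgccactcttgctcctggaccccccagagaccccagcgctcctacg
The capitals in Lcn2 are a match to the NF-κB motif, read on the reverse strand, at positions -242 to -233 from the start. Those in Vim are a match to the letters TATAAA at positions -82 to -77, and S1pr3 held none of the motifs. Promoters of 9 members were in the table (all but Cd109) and were searched on both strands over 300 bases, from 250 before to 50 after the start. An NF-κB motif (GGGA, any 2 bases, TTCC) was found in 2 of the 9, Lcn2 and Steap4, and in 1.3% of 33465 promoters. A STAT motif (TTC, any 3 bases, GAA) was found in 2, Serpina3n and Steap4, and in 8.87% of all. TATAAA was found in 2, Vim and Cp, and in 14.2% of all. The AP-1 motif TGANTCA (7.33% of all promoters) and the glucocorticoid receptor motif TGTTCT (20.7% of all) were in none of the 9 windows. A match describes these letters only.

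Per kb of gene length, the scale on which genes can be compared, the members spanned more than 3 orders of magnitude. Gfap was the most abundant, with 589 ± 87.5 CPM per kb in NC (mean ± SD, n = 6), above 99.3% of the genes tested by its level over the 3 groups. Vim followed with 144 ± 13.0 CPM per kb, above 96.5% of genes. Next in NC came Timp1 at 13.9 ± 4.79 and Cp at 11.3 ± 6.28 CPM per kb, whose spreads overlapped. Cd44 stood at 3.003 ± 0.576 CPM per kb and S1pr3 at 1.03 ± 0.81. Lcn2 (0.53 ± 0.378), Cd109 (0.337 ± 0.084) and Steap4 (0.23 ± 0.131 CPM per kb) were lowest and did not differ from their neighbours beyond their spread. In CLCF1 the order changed, with S1pr3 at 7.77 ± 7.11 and Lcn2 at 3.91 ± 1.69 CPM per kb, both above Cd44 at 3.495 ± 0.367 by their means but within the spread.

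**Figure D1:**
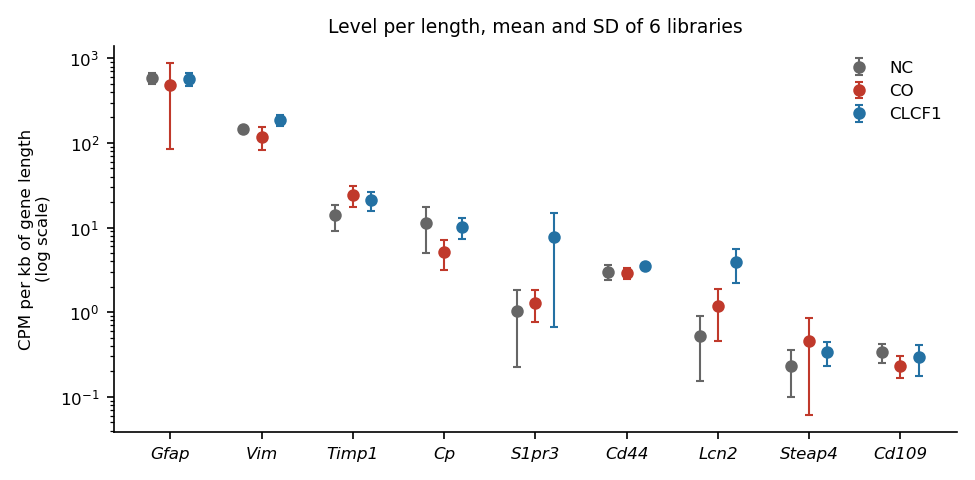
Level of each gene per kb of gene length on a log axis; points are the mean and bars the SD of the 6 libraries of NC, CO and CLCF1. Gfap and Vim lie far above the others in all 3 groups, and S1pr3 and Lcn2 are highest in CLCF1.

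CO against NC compares rats labelled as having inhaled CO with untreated rats. Among the 9 genes, Timp1 rose, Cp fell and 7 did not pass. All fold changes are from edgeR's quasi-likelihood test over all 18 libraries, ± is the standard error, and adjusted p-values are Benjamini-Hochberg values over all 16581 genes, with a threshold of 0.05. Of all genes, 6.32% were called higher and 6.4% lower in CO, so 1 of 9 in each direction is near the background. The median log2 fold change of the 9 was -0.04, against 0.01 over all genes. In 0 of the 9 did the groups separate without overlap, which 6.35% of all genes did.

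Of the secreted proteins, Timp1 encodes an inhibitor of matrix metalloproteinases. Its CPM values in NC had a lowest, median and highest of 6.85, 9.50 and 15.8, with 13.1 and 8.98 in libraries 1 and 2. In CO they were 13.5, 16.5 and 26.6, with 13.5 and 15.7 in libraries 1 and 2. The groups overlapped, with 3 CO libraries above every NC library. Timp1 rose by 0.80 ± 0.23 on the log2 scale (adjusted p = 0.0298, edgeR). The call was lost (adjusted p from 0.0536 to 0.0713) without any 1 of NC libraries 2, 4, 5 and 6 or CO libraries 4 and 5, and libraries 1 and 2 alone gave 0.39 ± 0.35.

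Cp encodes ceruloplasmin, a copper-carrying ferroxidase that astrocytes need to export iron. Its CPM in NC ran from 17.99 over a median of 37.2 to 86.8, with 41.7 and 29.8 in libraries 1 and 2. In CO it ran from 6.81 over 21.3 to 27.3, with 19.4 and 24.8 in libraries 1 and 2. Only NC library 6, at 17.99, reached into the CO range, and 2 CO libraries lay below every NC library. Cp fell by 1.13 ± 0.34 on the log2 scale (edgeR adjusted p = 0.0338). The call was lost (adjusted p from 0.0514 to 0.0938) without any 1 of NC libraries 1, 3 and 4 or CO libraries 1, 3 and 5. The log2 fold change was -0.80 without NC library 4, the highest library, and -0.71 ± 0.35 in libraries 1 and 2 alone.

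Lcn2 encodes lipocalin 2, a secreted carrier of iron-binding siderophores. It had 1 to 15 counts per library in NC and 6 to 36 in CO. Its CPM had a median of 0.383 in NC and 0.864 in CO, and 4 of the 6 CO libraries lay within the NC range. The log2 fold change of 1.16 ± 0.49 did not pass (edgeR adjusted p = 0.123). Serpina3n encodes a secreted serine protease inhibitor and had no row of its own. The row LOC299282, which the table's description links to the rat Serpina3n protein, held 32 counts over all 18 libraries. Of these, 16 were in NC library 4, 6 in NC library 1 and 5 in CLCF1 library 1, CO had 0 in all 6 libraries, and every other library had 0 or 1. It had too few counts to be tested, and reads of the near-identical genes of this family can be split between rows.

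The filament genes Gfap and Vim were the most abundant. Gfap had 1175 to 1867 CPM in NC (median 1602), and 1567 and 1175 in libraries 1 and 2. In CO, 5 of 6 libraries lay between 662 and 1122 CPM, below all NC libraries, with 881 and 978 in libraries 1 and 2. CO library 5 stood at 3441 CPM, higher than any other library of the series. With it the log2 fold change was -0.29 ± 0.31 (edgeR adjusted p = 0.573), and without it -0.87 (adjusted p = 0.00378), so 1 library decides the call. Libraries 1 and 2 alone gave -0.58 ± 0.24, with an edgeR p of 0.0415 before adjustment and 0.999 after it. Astrocyte identity genes did not show the high library: their sum in CO ran from 8841 to 10750 CPM. Vim had 230 to 293 CPM in NC and 104 to 284 in CO, and 4 CO libraries lay below all of NC. Its log2 fold change of -0.28 ± 0.18 did not pass (edgeR adjusted p = 0.291), and libraries 1 and 2 alone gave -0.47 ± 0.20. Vim is also expressed in fibroblasts, vessels and ependyma. The summed level of 10 fibroblast and meningeal markers was 862 to 1122 CPM in NC and 297 to 1081 in CO, and 4 of the 10 fell. That of 8 pericyte and smooth muscle genes was 237 to 306 CPM in NC and 90.7 to 198 in CO, without overlap, and 3 of the 8 fell. Ependymal genes summed to 37.7 to 61.9 CPM in NC and 15.3 to 40.4 in CO, and 2 of 7 fell. The summed level of 8 neuronal genes went the other way, from 4064 to 4520 CPM in NC to 5314 to 5650 in CO, without overlap. Of the 8, 3 rose and 5 did not pass, with log2 fold changes from -0.47 to 4.05 and a median of 0.16. The part of these cell types in the values of the 9 genes in CO against NC was not tested. In bulk tissue, fewer cells of a type and less RNA per cell cannot be told apart.

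Of the membrane proteins, none passed. S1pr3, a G protein-coupled receptor for sphingosine 1-phosphate, had 0.337 to 7.59 CPM in NC and 2.61 to 7.41 in CO, a log2 difference of 0.33 ± 0.60 (edgeR adjusted p = 0.76). Cd44, the receptor for hyaluronan in the matrix, had 9.12 to 15.4 CPM in NC and 8.83 to 13.3 in CO. Its log2 fold change was -0.04, with a 95% interval of -0.35 to 0.27. Steap4, a metalloreductase for iron and copper, was uneven in CO, with 1 count in library 1 and 64 in library 4 (log2 fold change 0.99 ± 0.54, edgeR adjusted p = 0.234). Cd109, a membrane-anchored relative of alpha-2-macroglobulin, had 13 to 45 counts per library in both groups together and a log2 fold change of -0.52 ± 0.29 (edgeR adjusted p = 0.235).

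**Figure D2:**
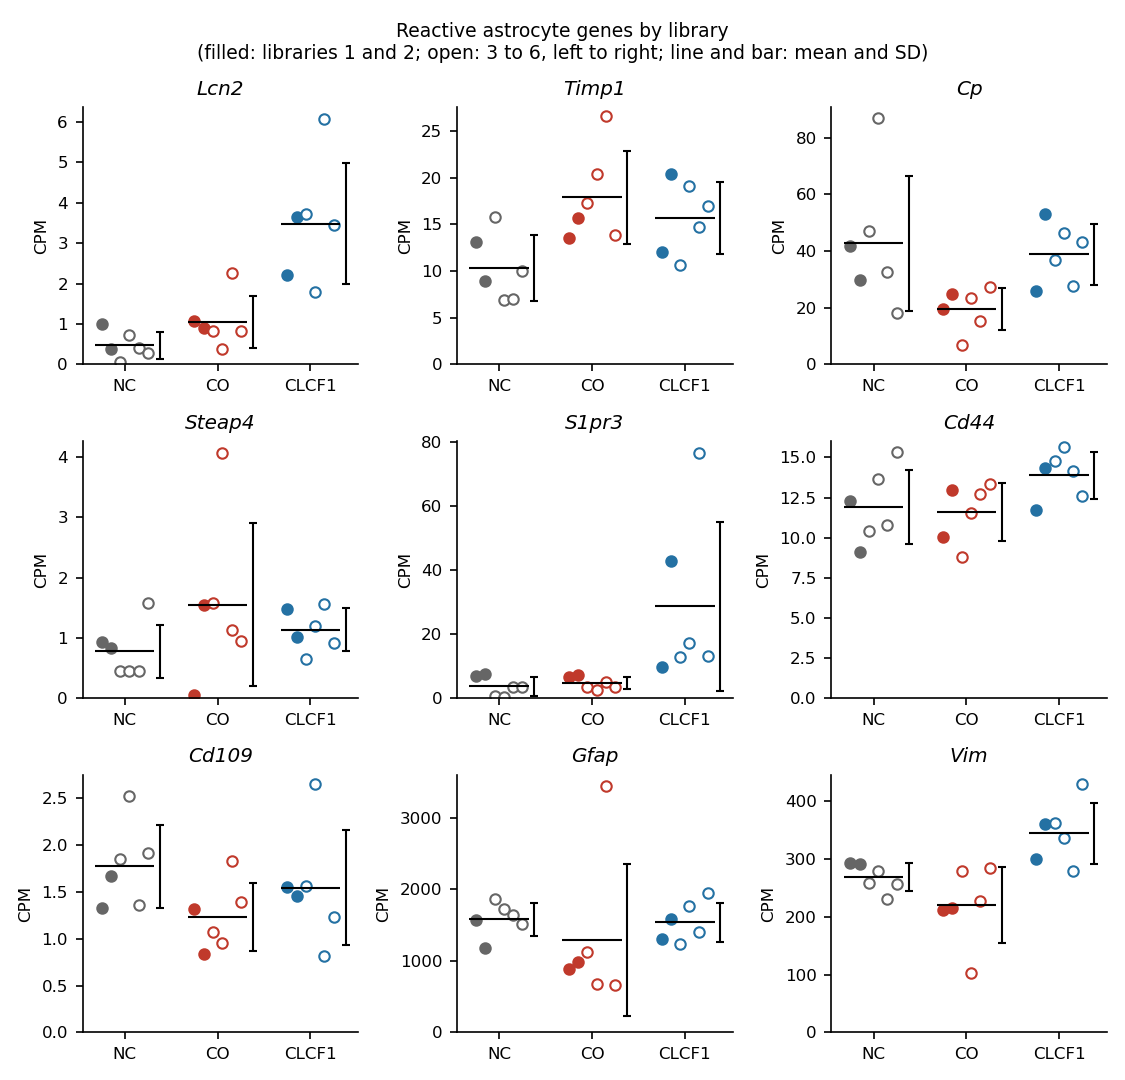
CPM of each gene in every library; filled points are libraries 1 and 2, open points libraries 3 to 6 from left to right, lines the mean and bars the SD of 6 libraries. S1pr3 and Lcn2 are highest in CLCF1, and Gfap stands at 3441 CPM in CO library 5 against 662 to 1122 in the other 5.

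CLCF1 against CO compares the knock-down label with wild-type among rats that had inhaled CO. Lcn2, S1pr3, Vim and Cp rose, 0 fell and 5 did not pass. Of all genes, 8.63% were called higher and 8.34% lower. The median log2 fold change of the 9 genes was 0.32, against 0.002 over all genes. The groups did not overlap for 1 of the 9, S1pr3, and for 7.12% of all genes. In libraries 1 and 2 alone, 0 of the 9 and 0.0476% of all genes were called. In them, 4 of the 9 had an unadjusted edgeR p under 0.05, namely S1pr3, Vim, Cp and Gfap, all higher in CLCF1. The share of all genes under this unadjusted cut was not taken, so the 4 have no background beside them. DESeq2 on all libraries called Lcn2, S1pr3, Vim and Cp too, and gave no adjusted p for Gfap.

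S1pr3 showed the largest difference of the 9 genes in this comparison. Its CPM in CLCF1 had a lowest, median and highest of 9.89, 15.2 and 76.4, with 9.89 and 42.7 in libraries 1 and 2. Every CLCF1 library lay above every CO library, whose highest was 7.41 CPM. S1pr3 rose by 2.58 ± 0.61 on the log2 scale (edgeR adjusted p = 0.00821). CLCF1 library 5 weighed on the size: the log2 fold change was 2.002 without it (adjusted p = 0.0244), and the leave-one-out fits ran from 2.002 to 2.75. Taken alone, libraries 1 and 2 gave 1.87 ± 0.58 (unadjusted p = 0.0119, edgeR adjusted p = 0.881), and libraries 3 to 6 alone 3.03 ± 0.73 (adjusted p = 0.0246).

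Lcn2 had 33 to 112 counts per library in CLCF1. Its CPM there had a lowest, median and highest of 1.79, 3.55 and 6.07, with 2.20 and 3.65 in libraries 1 and 2. Only CO library 5, at 2.27 CPM, reached into that range, and 4 of 6 CLCF1 libraries lay above all of CO. Lcn2 rose by 1.73 ± 0.46 on the log2 scale (edgeR adjusted p = 0.0151), and it kept the call without any 1 library (adjusted p up to 0.0396). Libraries 1 and 2 alone gave 1.54 ± 0.77 (edgeR adjusted p = 1) and libraries 3 to 6 alone 1.79 ± 0.62 (adjusted p = 0.0915). Neutrophils also make Lcn2, so their markers are given beside it. Of 8 leukocyte genes with a row, 3 had enough counts to be tested and 1 passed. This was the neutrophil gene S100a9, which rose by 1.93 ± 0.60 (edgeR adjusted p = 0.0327), from 44 counts over the CO libraries to 201 over the CLCF1 libraries. S100a8, whose protein pairs with that of S100a9, had 26 counts over CO and 61 over CLCF1, too few to be tested. Ptprc, which marks leukocytes in general, had 414 and 630 counts and did not pass (0.38 ± 0.28). The lymphocyte genes Cd3e, with 71 and 55 counts, and Cd79a, with 16 and 0, went the other way, and neither was called. Of the neutrophil granule genes, Elane had 0 counts in all 18 libraries, and Mpo had 7 over NC, 5 over CO and 0 over CLCF1, so neither separates the groups. The summed level of the list was 2.96 to 7.89 CPM in CO and 7.04 to 10.5 in CLCF1. The part of these cells in the Lcn2 values was not tested.

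Cp in CLCF1 ran from 25.9 over a median of 40.0 to 53.1 CPM, with 25.9 and 53.1 in libraries 1 and 2, and 5 of 6 libraries lay above all of CO. It rose by 1.00 ± 0.33 on the log2 scale (edgeR adjusted p = 0.0473). This call was lost (adjusted p up to 0.0943) in 12 of the 18 fits that left out 1 library, those of NC libraries 1, 2, 3 and 5, CO libraries 1, 3, 4 and 5 and CLCF1 libraries 2, 3, 4 and 6. Taken alone, libraries 1 and 2 gave 0.82 ± 0.35 (unadjusted p = 0.044). Vim ran from 279 over 348 to 429 CPM in CLCF1, with 299 and 360 in libraries 1 and 2, and 5 of 6 libraries lay above all of CO. It rose by 0.64 ± 0.18 (edgeR adjusted p = 0.0176) and kept the call without any 1 library, but not in a fit of the 2 groups alone (adjusted p = 0.0514). Libraries 1 and 2 alone gave 0.62 ± 0.20 for Vim (unadjusted p = 0.0118).

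Gfap, the other filament gene, had 1235 to 1946 CPM in CLCF1, with 1314 and 1584 in libraries 1 and 2. All CLCF1 libraries lay between the 5 lower CO libraries and CO library 5. The log2 fold change was 0.25 ± 0.31 with CO library 5 (edgeR adjusted p = 0.621) and 0.82 without it (adjusted p = 0.00376). Taken alone, libraries 1 and 2 gave 0.63 ± 0.24 (unadjusted p = 0.0293). Timp1, Cd44, Steap4 and Cd109 did not pass. Their log2 fold changes were -0.19 ± 0.23, 0.26 ± 0.15, -0.45 ± 0.53 and 0.32 ± 0.29, and for Timp1, which had risen in CO, the 95% interval ran from -0.68 to 0.29.

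**Figure D3:**
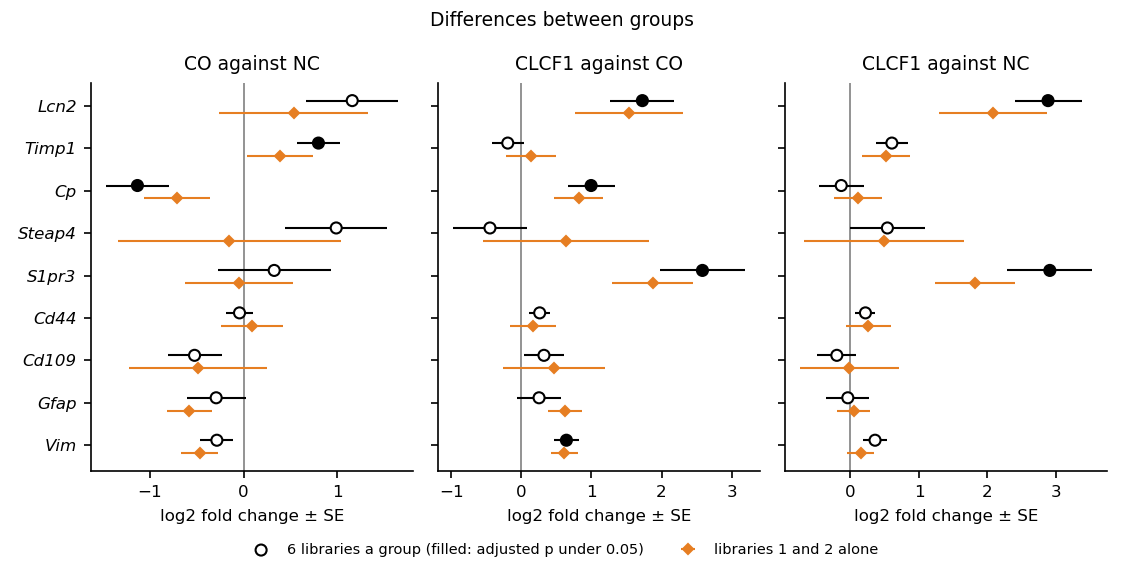
Log2 fold changes and standard errors in the 3 comparisons, which share groups; circles use 6 libraries a group and are filled where the adjusted p is under 0.05, and diamonds use libraries 1 and 2 alone. In CLCF1 against CO, Lcn2, S1pr3, Vim and Cp are filled and lie to the right of 0 by both measures.

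Choroid plexus, the epithelium that makes cerebrospinal fluid, also expresses Cp, and its marker genes differed widely between the groups. Of 7 choroid plexus genes tested, 6 rose in CLCF1 against CO, among them Ttr, the gene of the thyroxine carrier transthyretin, by 8.13 ± 1.69. The summed level of the list was 0.882 to 41.6 CPM in CO and 58.6 to 5987 in CLCF1. By this sum every CLCF1 library thus lay above every CO library, as it did for S1pr3. Single genes of the list could overlap: Ttr was at 0.063 to 29.4 CPM in CO and 5.40 to 5703 in CLCF1. Aqp1 did not overlap, at up to 5.80 CPM in CO and at least 39.9 in CLCF1. In CLCF1 libraries 1 to 6 in turn, the choroid plexus sum was 5987, 58.6, 3686, 3910, 824 and 2650 CPM. Cp in the same libraries was 25.9, 53.1, 36.7, 46.5, 27.7 and 43.3 CPM. S1pr3 was 9.89, 42.7, 12.9, 17.1, 76.4 and 13.2 CPM. Lcn2 was 2.20, 3.65, 3.71, 1.79, 6.07 and 3.44 CPM. The library with the highest choroid plexus sum had the lowest Cp and the one with the lowest sum the highest Cp, while libraries 3, 4 and 6 exceeded library 5 in both. The part of choroid plexus in the values of S1pr3, Lcn2, Cp and Vim was not tested. Of 7 ependymal genes tested, 3 rose in CLCF1 against CO, of 10 fibroblast and meningeal genes 2 rose, and of 8 pericyte and smooth muscle genes 1 rose. Their part in the Vim values was not tested either.

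**Figure D4:**
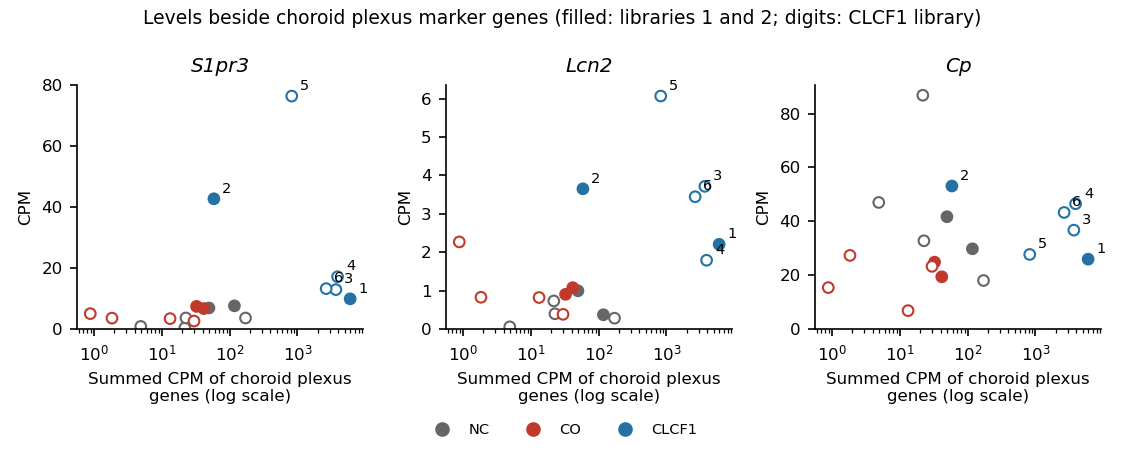
CPM of S1pr3, Lcn2 and Cp against the summed CPM of 7 choroid plexus genes on a log axis, 1 point per library; digits number the CLCF1 libraries. The CLCF1 libraries, at 58.6 to 5987 CPM of choroid plexus genes, all lie to the right of the CO libraries, at up to 41.6. Cp is lowest in library 1 and highest in library 2, and higher in libraries 3, 4 and 6 than in library 5.

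The last comparison, CLCF1 against NC, sets CO-exposed rats with the knock-down label against untreated rats. It shares its libraries with the other comparisons, so its values are not a separate line of evidence. Lcn2 and S1pr3 rose, 0 fell and 7 did not pass, while 4.43% of all genes were called higher and 4.84% lower. The groups did not overlap for 2 of the 9, the same pair, and for 5.63% of all genes. Lcn2 rose by 2.88 ± 0.49 on the log2 scale (edgeR adjusted p = 0.0016), from 0.471 ± 0.336 to 3.48 ± 1.5 CPM (SD, n = 6). NC held only 49 Lcn2 counts in 6 libraries, so its level there is loosely fixed. S1pr3 rose by 2.91 ± 0.62 (edgeR adjusted p = 0.00764), from 3.81 ± 2.99 to 28.7 ± 26.3 CPM. Leaving out any 1 library gave 2.63 to 3.21 for Lcn2 and 2.33 to 3.24 for S1pr3, and all of these fits kept the call. With libraries 1 and 2 alone 0 of the 9 were called, while they called 0.0119% of all genes here and 0.0238% in CO against NC. They gave 2.08 ± 0.79 for Lcn2 (unadjusted p = 0.0275, edgeR adjusted p = 1) and 1.82 ± 0.58 for S1pr3 (unadjusted p = 0.0133, edgeR adjusted p = 1). S100a9 rose here too, by 2.65 ± 0.63, and so did 5 of 7 choroid plexus genes (median log2 fold change of the 7, 4.44). The part of neutrophils and choroid plexus in the values of Lcn2 and S1pr3 was not tested here either.

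The other 7 genes differed from NC by less than the test could call. Gfap was at 1541 ± 275 CPM in CLCF1 and 1582 ± 235 in NC (SD, n = 6), with a 95% interval of the log2 fold change from -0.70 to 0.63. Cp was at 38.9 ± 10.8 and 42.7 ± 23.8 CPM, with an interval from -0.84 to 0.57. Vim was 0.36 ± 0.18 higher (edgeR adjusted p = 0.208), with 5 of 6 CLCF1 libraries above all of NC, and Timp1 was 0.60 ± 0.23 higher (adjusted p = 0.103). Cd44, Steap4 and Cd109 stood at 0.22 ± 0.15, 0.54 ± 0.54 and -0.20 ± 0.28 on the log2 scale. The 95% intervals ran from -0.61 to 1.69 for Steap4 and from -0.80 to 0.40 for Cd109.

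Genes of the same published lists that are not among the 10 did not move as 1 group. Of 4 further pan-reactive genes, 0 passed in CO against NC, and in CLCF1 against CO the small heat shock protein gene Hspb1 fell by 0.64 ± 0.20 while 3 did not pass. Osmr, the receptor of oncostatin M, was 1.65 higher in CO but did not pass. Of 9 A1 genes tested, the elastic fibre gene Fbln5 fell in CO by 0.92 ± 0.19 and 8 did not pass (median log2 fold change -0.31). In CLCF1 against CO, 2 of the 9 rose: Gbp2, an interferon-induced GTPase, by 1.55 ± 0.39 and Psmb8, a subunit of the immunoproteasome, by 1.38 ± 0.46. Libraries 1 and 2 alone gave 1.10 and 0.56 for these. C3, the complement component often used to mark this state, was at -0.17 and 0.19 in the comparisons of CO with NC and of CLCF1 with CO.

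Of 10 A2 genes tested, 2 rose and 2 fell in CO against NC. Clcf1 itself is on this list and rose by 5.19 ± 0.45, and Emp1, a membrane protein of epithelia, rose by 0.84 ± 0.23. B3gnt5, a glycolipid-extending enzyme, fell by 3.13 ± 0.67 and Tm4sf1, a tetraspan membrane protein, by 0.51 ± 0.16. In CLCF1 against CO, Clcf1, the prostaglandin synthase gene Ptgs2 (-1.21 ± 0.34) and the carrier gene Slc10a6 (-3.69 ± 0.95) fell, B3gnt5 rose by 2.85 ± 0.68, and 6 did not pass. In CLCF1 against NC only Ptx3, the gene of pentraxin 3, rose among these 10, by 1.5 ± 0.46 (edgeR adjusted p = 0.0454). Taken alone, libraries 1 and 2 gave 1.29 for B3gnt5 and -2.79 for Slc10a6 in CLCF1 against CO, and 1.04 for Ptx3.

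**Figure D5:**
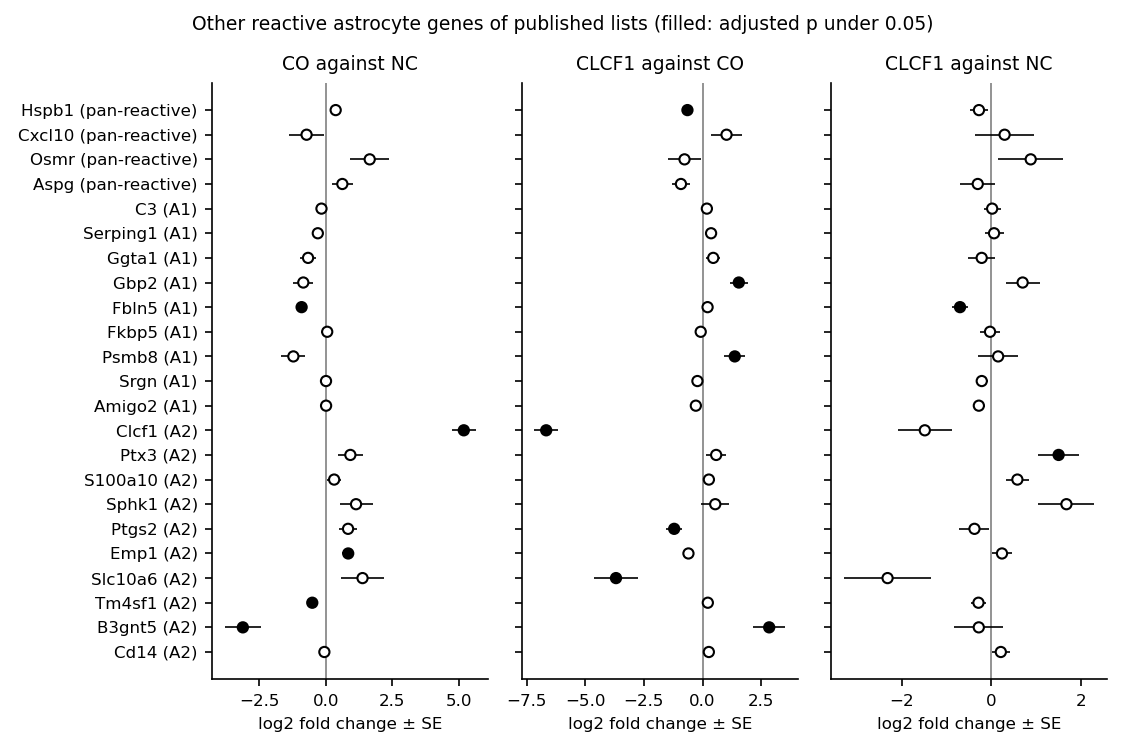
Log2 fold changes and standard errors of 23 further genes of the pan-reactive, A1 and A2 lists; circles are filled where the adjusted p is under 0.05, and the axes of the 3 panels differ. Clcf1 and B3gnt5 move in opposite directions in both CO against NC and CLCF1 against CO.

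Among inducers of the reactive state, transducers and their inhibitors, Il1b, Cebpb and the inhibitor gene Socs3 rose in CO and fell in CLCF1 against CO. Of 10 inducers tested, Il1b and C1qa rose and Ctf1 fell in CO against NC. C1qa encodes a chain of complement C1q, and rose by 0.60 ± 0.16; Ctf1 encodes cardiotrophin 1, a gp130 ligand like that of Clcf1, and fell by 1.30 ± 0.40. In CLCF1 against CO, Ctf1 rose by 1.31 ± 0.40 and the growth factor gene Bmp4 by 0.45 ± 0.12. Edn1, the gene of endothelin 1, fell there by 2.35 ± 0.34, and Il1b fell from 440 counts over the CO libraries to 3 over the CLCF1 libraries. Tnf and Il6 had too few counts to be tested. Tnf had 0 counts over NC, 15 over CO and 0 over CLCF1, and Il6 had 22 over NC and 0 over both CO and CLCF1. Of 21 receptors and transducers, 3 rose in CO against NC, namely the inhibitor genes Socs3 (1.30 ± 0.40) and Nfkbia (2.13 ± 0.52) and the transcription factor gene Cebpb (1.96 ± 0.47). In CLCF1 against CO, Socs3 fell by 2.99 ± 0.43, Cebpb by 2.78 ± 0.49 and Nfkb1 by 0.84 ± 0.17, while the TNF receptor gene Tnfrsf1a rose by 0.96 ± 0.19 and 17 did not pass. In CLCF1 against NC, C1qa rose by 0.67 ± 0.16 and Tnfrsf1a by 0.64 ± 0.18, while Edn1 fell by 1.86 ± 0.34, Socs3 by 1.69 ± 0.42, Nfkb1 by 0.64 ± 0.17 and, of the A1 list, Fbln5 by 0.70 ± 0.19. In CLCF1 against CO, Stat3 was at 0.29 and the lipocalin 2 receptor genes Slc22a17 and Lrp2 at -0.30 and -0.04, none of which passed. Libraries 1 and 2 alone gave -2.39 for Socs3, -1.96 for Cebpb, -0.59 for Nfkb1 and 0.44 for Tnfrsf1a.

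Homeostatic astrocyte genes were not called in CLCF1 against CO, where 4 members were called higher. Of 14 tested, 0 passed there, while 8.63% of all genes were called higher and 8.34% lower, so 0 of 14 is near the background. Their log2 fold changes ran from -0.44 to 0.74 with a median of 0.06, and the highest exceeded the 0.64 of Vim. In CO against NC, Aldh1l1, the folate enzyme gene that marks astrocytes, fell by 0.77 ± 0.20 and 13 did not pass. The log2 fold changes of all 14 were below 0 there, from -0.77 to -0.02 with a median of -0.24. In CLCF1 against NC, Aldh1l1 fell by 1.21 ± 0.20 and Slc1a2, the main glutamate transporter gene, by 0.83 ± 0.25. The summed level of the 14 genes ran from 10060 to 13120 CPM in NC, from 8841 to 10750 in CO and from 9527 to 11770 in CLCF1. Microglial genes did not pass in CLCF1 against CO either (0 of 8).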

How the data were processed

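RNA-seq of rat brain was analysed in 18 libraries, grouped by the sample titles. The authors deposited raw, whole-number counts per gene, 1 column per library. Which aligner and counter made them, and whether by strand, is not given in the sources used here, and overlapping or antisense genes may therefore share reads. GRCm38 and mm10, both mouse builds, are named in the submitters' processing notes, while the gene IDs are of rat. For this reason no coordinates from the count table are printed.

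The test was edgeR 4.0.16's (R 4.3.3) (TMM scaling, filterByExpr defaults, robust quasi-likelihood fit of all 18 libraries), with Benjamini-Hochberg adjustment over all 16581 genes and calls at 0.05. Each standard error is the log2 fold change divided by the square root of F, and 95% intervals use 15 degrees of freedom. The common biological coefficient of variation was 0.312. The test was checked on simulated counts. These were drawn as independent libraries, so the check does not cover libraries that depend on each other. Chi-square per degree of freedom between libraries of a group was at least 39.1, so no pair agreed within sampling noise. Promoters came from RefSeq, GRCr8, matched by symbol.

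Alternatives tried were a block on library number, libraries 1 and 2 or 3 to 6 alone, other scalings and filters, DESeq2 1.42.0, limma-voom 3.58.1, fits of 2 groups, and leaving out each library. The members, lists, tests and these alternatives were chosen with earlier results of these data known. All 10 members are named, and of each list the genes that passed, up to 6 per comparison, beside marker genes. A few genes that did not pass (C3, Osmr, Stat3, Slc22a17 and Lrp2) were named after their values were seen.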

Additional observations from a re-analysis of the deposited data

Results flagged for a closer look

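Over 27 groups of 6 libraries (9 genes in NC, CO and CLCF1), 2 held a library far from the others, and chance alone flags about 1 group in 20. Gfap in CO library 5 stood at 3441 CPM, with the nearest CO library at 1122, a gap of 0.835 of the range of the group. Lcn2 in the same library stood at 2.267 CPM, with the nearest at 1.076, a gap of 0.632 of the range. Without CO library 5, Gfap was called lower in CO than in NC and higher in CLCF1 than in CO, and Lcn2 kept its call in CLCF1 against CO.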

How the results depend on the processing

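Leaving out 1 library at a time changed no call of Lcn2, S1pr3 or Vim, and gave 0 to 2 members called in CO against NC. Signs turned only for members that had not passed: Cd44 in CO against NC ran from -0.1106 to 0.03742, Steap4 in CLCF1 against CO from -0.7036 to 0.09392, and in CLCF1 against NC Gfap ran from -0.1159 to 0.01823 and Cp from -0.3107 to 0.1993. Of 267 member values under the other settings, 240 kept direction and call, 17 lost the call and 10 turned sign. With libraries 1 and 2 alone, 4, 8 and 2 genes were called for CO against NC, then CLCF1 against CO, then CLCF1 against NC, and 0 members in each. There S1pr3 (-0.05068), Cd44 (0.09141) and Steap4 (-0.1501) turned sign in CO against NC, Timp1 (0.1361) and Steap4 (0.6391) in CLCF1 against CO, and Gfap (0.05136) and Cp (0.1113) in CLCF1 against NC. With libraries 3 to 6 alone, 918, 1436 and 736 genes were called, and 0, 1 and 2 members. These subsets hold fewer libraries. With no filter, 4291, 5645 and 4292 genes were called, and with DESeq2 4170, 5254 and 3844. Limma-voom called 1 member in CO against NC and turned Steap4 in CLCF1 against CO (0.464) and, in CLCF1 against NC, Gfap (0.0007736) and Cp (0.03363). A fit of only the 2 groups compared called 1 member in CO against NC. The cause was not tested for these settings. Same-numbered libraries deviated together weakly or not at all (r from -0.0283 to 0.149). In 5 of 18 same-number pairs, over the 3 pairs of groups, the number shared was the best match. For NC with CO, NC with CLCF1 and CO with CLCF1, library 1 gave r = 0.0505, 0.00431 and 0.0551. Library 2 gave 0.0558, 0.0411 and 0.149. Whether the numbers pair the samples cannot be decided from these values, because libraries 3 to 6 may not be independent samples. With library number as a replicate block, 1 member was called in CO against NC, and Timp1 was not (edgeR adjusted p = 0.0726). Lcn2, at 1 to 15 counts per NC library, and Steap4 and Cd109 are the members that depth limits most.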
